A study of Caenorhabditis elegans with 2 samples.

Results

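The regions described here are windows at the 5' ends of microRNA genes, each reaching from 1000 bp upstream to 200 bp downstream of the 5' end of an annotated nuclear gene of the biotype miRNA (Ensembl release 115, WBcel235). There are 261 such windows among 46890 windows drawn in the same way for nuclear genes of every biotype, of which 19973 belong to protein-coding genes. The windows were scanned for summits of chromatin immunoprecipitation sequencing (ChIP-seq) peaks made from entire L2 larvae of both sexes of the Caenorhabditis elegans strain OP178. The strain carries unc-119(ed3) on chromosome III and the integrated transgene wgIs178, which expresses SKN-1 fused to GFP-FLAG at its C terminus. SKN-1 is a transcription factor of the oxidative stress response, and skn-1 is also the antibody label. Yet the description of each library gives PHA-4, a forkhead factor of the pharynx, so the protein is called the tagged protein below. The larvae form 1 group with 2 biological replicates and no second condition, and no strain without the fusion enters the comparisons. The occupancy described is that of a transgene product in whole animals, so that cell types cannot be told apart.

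MicroRNAs are small RNAs cut from hairpins in longer primary transcripts. The enzymes Drosha and Dicer release the mature strand, which an Argonaute protein then uses to find messenger RNAs that pair with its seed, the bases near its 5' end, and to lower their output. Genes with the same seed form a family whose members can act on overlapping targets. In C. elegans microRNAs are known for timing larval development, and others act in ageing and stress resistance. The annotated 5' end of a microRNA gene is mostly that of the hairpin and not a transcription start, since primary transcripts can begin further upstream or at the promoter of a host gene.

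In the optimal list, the authors' reproducible set of 870 nuclear peaks, a summit lay in 8 of the 261 windows, those of mir-5549, mir-354, mir-241, mir-353, mir-53, mir-60, mir-4929 and mir-71. That is 3.07% of the windows, with an exact 95% binomial interval from 1.33% to 5.95% that covers counting error only. The background share of protein-coding gene windows with an optimal summit was 3.63% (725 of 19973). The share for microRNA genes was thus close to that background, and the protein-coding share lies inside the interval. The 8 summits belonged to 8 different peaks at 8 separate loci, among 216 loci obtained when hairpins of 1 strand starting within 5000 bp of each other were joined.

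The mature products of the occupied genes differed in how many other genes share their seed, and most shared it with none. Those with several relatives among the other genes are shown first, with the seed, bases 2 to 8, in capitals (RefSeq, WBcel235). An optimal summit lay in 3.07% of all microRNA windows, and placement within the families was not tested. The mir-241-5p seed is shared with let-7, mir-48, mir-84 and mir-795, the let-7 family of the larval clock, and of these genes mir-241 was the one with an optimal summit in its window.
mir-241-5p: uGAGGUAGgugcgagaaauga
let-7-5p: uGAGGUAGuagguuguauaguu
mir-48-5p: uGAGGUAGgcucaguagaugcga
mir-84-5p: uGAGGUAGuauguaauauuguaga

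The mir-53-5p seed is shared with 5 other genes of the mir-51 family, a family needed for embryonic development. None of these 5 had an optimal summit in its window. All 5 had a summit in the pooled list and in both replicate lists, beside 23.0% and 23.4% of all microRNA windows. They are not independent, since mir-54, mir-55 and mir-56 share a single pooled summit, and that of mir-51 was weak (rank 12940, q 0.953).
mir-53-5p: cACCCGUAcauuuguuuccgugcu
mir-52-5p: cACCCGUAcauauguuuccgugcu
mir-51-5p: uACCCGUAgcuccuauccauguu
mir-54-3p: uACCCGUAaucuucauaauccgag
mir-55-3p: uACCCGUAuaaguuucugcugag
mir-56-3p: uACCCGUAauguuuccgcugag

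The products of the remaining occupied genes had few relatives or none. mir-60-3p, mir-71-5p, mir-353-5p, mir-4929-3p and both arms of mir-354 and mir-5549 shared their seeds with no annotated arm of another gene. mir-60-5p, from the other arm of the mir-60 hairpin, shared a seed with mir-1823-3p, whose gene had no summit in the optimal or pooled list. The same held for mir-71-3p, which shared a seed with mir-2953-3p.
mir-60-3p: uAUUAUGCacauuuucuaguuca
mir-4929-3p: aAUGCACCacaucuuacgcuca
mir-5549-5p: cUUGUGAAauuaacgugagu
mir-5549-3p: uCAUGUUGguuuuuuguuggu

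The DNA under the summits is shown for 5 of the peaks, because these are the ones that held a short SKN-1 word. That word also lay at 69.9% of all 870 optimal peaks, so it does not set these peaks apart. SKN-1 is known to bind the words TATCAT and TGTCAT preceded by bases rich in A and T, and its core is ATCAT or GTCAT. Each stretch holds 201 bp centred on the summit, is written in the direction of the hairpin's strand and overlaps no annotated protein-coding exon. Capitals mark the words ATCAT and GTCAT, the longer SKN-1 word and the GATA word TGATAA, on either strand. The stretches lie at chrIII:6971999-6972199 for mir-5549, chrV:14367032-14367232 for mir-241, chrIV:11027691-11027891 for mir-53, chrII:6328773-6328973 for mir-60 and chrII:13462105-13462305 for mir-4929, in WBcel235 (ce11), and all are read from the minus strand.
mir-5549 peak: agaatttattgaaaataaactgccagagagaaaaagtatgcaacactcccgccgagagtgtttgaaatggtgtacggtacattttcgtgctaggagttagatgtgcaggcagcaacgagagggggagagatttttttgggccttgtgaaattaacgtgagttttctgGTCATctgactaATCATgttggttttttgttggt
mir-241 peak: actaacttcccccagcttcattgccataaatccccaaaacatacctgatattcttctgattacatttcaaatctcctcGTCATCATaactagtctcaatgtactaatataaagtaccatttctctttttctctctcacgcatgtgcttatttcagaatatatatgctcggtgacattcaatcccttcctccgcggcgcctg
mir-53 peak: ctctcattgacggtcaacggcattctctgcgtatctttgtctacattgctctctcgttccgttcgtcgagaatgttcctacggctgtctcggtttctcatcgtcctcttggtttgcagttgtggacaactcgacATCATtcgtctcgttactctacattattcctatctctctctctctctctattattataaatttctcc
mir-60 peak: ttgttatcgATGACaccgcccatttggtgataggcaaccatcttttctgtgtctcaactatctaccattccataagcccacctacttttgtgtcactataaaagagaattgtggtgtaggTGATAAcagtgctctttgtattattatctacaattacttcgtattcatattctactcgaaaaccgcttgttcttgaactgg
mir-4929 peak: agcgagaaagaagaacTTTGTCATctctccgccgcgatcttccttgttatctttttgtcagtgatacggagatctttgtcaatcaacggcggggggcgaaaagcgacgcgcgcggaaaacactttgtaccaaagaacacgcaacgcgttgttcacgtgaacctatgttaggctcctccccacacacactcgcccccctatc

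In the mir-5549 stretch the mature arms themselves can be read, mir-5549-5p at positions 142 to 161 and mir-5549-3p at positions 181 to 201, counted from 1 at the left end. One of its words, at positions 180 to 184, runs into the 3p arm, and the nearer word was centred 69 bp from the summit. In the mir-241 stretch an overlapping pair of short words occupied positions 79 to 86, and the nearer one was centred 17 bp from the summit. In the mir-53 stretch the CT run at positions 167 to 182 is the word GAGAGAGA on the other strand. The short word there was centred 36 bp from the summit. The mir-60 stretch held TGATAA at positions 121 to 126, centred 22.5 bp from the summit, while its short word was centred 89 bp away. The mir-4929 stretch was the one with the longer SKN-1 word, TTTGTCAT at positions 17 to 24, centred 80.5 bp from the summit. It also held the word CACGTG at positions 153 to 158.

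**Figure D1:**
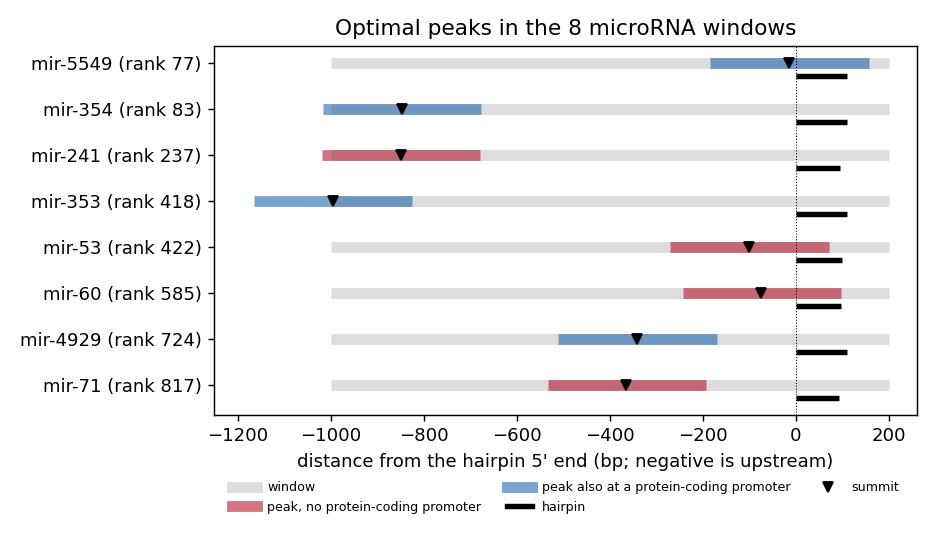
Each row is 1 of the 8 microRNA windows with an optimal summit, drawn to scale as distance in bp from the hairpin 5' end, with the window in grey, the peak in blue where its summit was also in a protein-coding promoter and red where it was not, the hairpin as a black bar and the summit as a triangle. The summits of mir-5549, mir-60 and mir-53 lie 14 to 100 bp upstream of the hairpin, and those of mir-354, mir-241 and mir-353 lie 847 to 994 bp upstream.

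The strongest microRNA peak lay directly at the mir-5549 hairpin (WBGene00219220, chrIII:6971976-6972085, minus strand). The peak spanned chrIII:6971929-6972268, with its summit 14 bp upstream of the hairpin. Its deposited signal, the authors' enrichment value on the scale of its list, was 104.4, which ranked 77 of 870, against a list median of 54.1. In replicate 1 the matching peak had a signal of 72.5 and ranked 81. In replicate 2 it had a signal of 30.9 and ranked 98, so it was among the strongest peaks of each library. The same summit lay in the promoters of eef-1A.1, which encodes the translation elongation factor 1 alpha, and of rfc-4, a subunit of the DNA replication clamp loader, whose annotated 5' end was 154 bp away. Which of these genes the peak belongs to cannot be told apart.

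The peaks at mir-354 and mir-353 were likewise at promoters of translation genes. The mir-354 hairpin (WBGene00014612, chrI:14468382-14468491, minus strand) lies inside rps-20, a small ribosomal subunit protein gene on the same strand, and the peak at chrI:14469168-14469507 was 847 bp upstream of the hairpin. It had a signal of 101.0 and rank 83, and its summit lay in the promoters of rps-20 and ekl-4, 162 bp from the 5' end of ekl-4. The replicate signals were 56.5 (rank 152) and 46.3 (rank 39), high in both libraries. The mir-353 hairpin (WBGene00023452, chrI:4585874-4585983, plus strand) lies inside rpl-24.1, a large ribosomal subunit protein gene. Its peak at chrI:4584710-4585049 lay in the shared promoter of rpl-24.1 and rps-10, 235 bp from the 5' end of rpl-24.1 and 994 bp upstream of the hairpin, close to the window's edge. Its signal was 55.0 (rank 418), and the replicate signals were 32.6 (rank 761) and 17.5 (rank 553). In replicate 1 the summit was shifted by 27 bp, which put it outside the window.

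At mir-241, a let-7 family member that acts with mir-48 and mir-84 at the L2 to L3 transition, the peak was far from any protein-coding promoter. The hairpin (WBGene00003335, chrV:14366188-14366283, minus strand) is intergenic, and the peak at chrV:14366962-14367301 was 849 bp upstream. The nearest protein-coding 5' end, that of unc-39, was 5942 bp from the summit. The signal was 67.5 and the rank 237, with a deposited q, the authors' p adjusted for multiple peaks, of 0.00147. The replicates were unlike at this peak: in replicate 1 the signal was 53.3 (rank 185, q 0.00117), and in replicate 2 it was 9.34 (rank 3497, q 0.0720). It was the one peak of the 8 with q above 0.05 in a replicate. Replicate 2 had a stronger summit elsewhere in the window, 376 bp upstream of the hairpin, with a signal of 13.4, rank 1248 and q 0.0122.

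The peaks at mir-53 and mir-60 lay close to the hairpins and in no protein-coding promoter. The mir-53 hairpin (WBGene00003281, chrIV:11027593-11027691, minus strand) had a peak at chrIV:11027621-11027960 with the summit 100 bp upstream and the nearest protein-coding 5' end, hrg-5, 1637 bp away. Its signal was 54.9 (rank 422, q 0.00354). It ranked 1480 in replicate 1 (signal 25.6, q 0.0105) and 129 in replicate 2 (signal 28.2, q 0.0100), so replicate 2 placed it much higher. mir-60, an intestinal microRNA known from the response to oxidative stress, lies at chrII:6328702-6328799 (WBGene00003288, minus strand). Its peak at chrII:6328703-6329042 had the summit 74 bp upstream, 2468 bp from the nearest protein-coding 5' end, that of the histone methyltransferase gene set-4. The signal was 49.6 (rank 585, q 0.00256), and the replicate values were 25.5 (rank 1487, q 0.0104) and 21.6 (rank 279, q 0.0100), again with the higher rank in replicate 2.

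The remaining peaks, at mir-4929 and mir-71, lay within host genes. The mir-4929 hairpin (WBGene00219226, chrII:13461755-13461864, minus strand) is in E01G4.3, on the same strand. Its peak at chrII:13462035-13462374, 341 bp upstream, fell in the promoter of an E01G4.3 transcript, though not in the window at the 5' end of the gene record. Its signal was 46.1 (rank 724), with replicate signals of 32.6 (rank 762) and 12.8 (rank 1430, q 0.0134). mir-71, known to extend lifespan and to sustain survival in starvation, lies in ppfr-1 (WBGene00003299, chrI:9379927-9380020, minus strand), which encodes a regulatory subunit of protein phosphatase 4. Its peak at chrI:9380214-9380553 had the summit 364 bp upstream in an intron of ppfr-1, 9598 bp from the nearest protein-coding 5' end, that of ppfr-1 itself. This was the weakest of the 8, with a signal of 44.2 (rank 817, q 0.00428) against a minimum of 43.2 in the list. The replicate signals were 29.8 (rank 978, q 0.00460) and 12.1 (rank 1683, q 0.0173), outside the strongest 870 peaks of either library.

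In all, 4 of the 8 summits were also in the promoter of a protein-coding gene (mir-5549, mir-354, mir-353 and mir-4929), where a promoter is the same window at the 5' end of any transcript. Of all 870 optimal summits 588 (67.6%) lay in such a promoter, a larger share than the 4 of 8 here, and the difference was not tested. The other peaks, at mir-241, mir-53, mir-60 and mir-71, were in no annotated protein-coding promoter. Counted by gene, 3.89% of all protein-coding genes had an optimal summit in such a promoter.

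**Figure D2:**
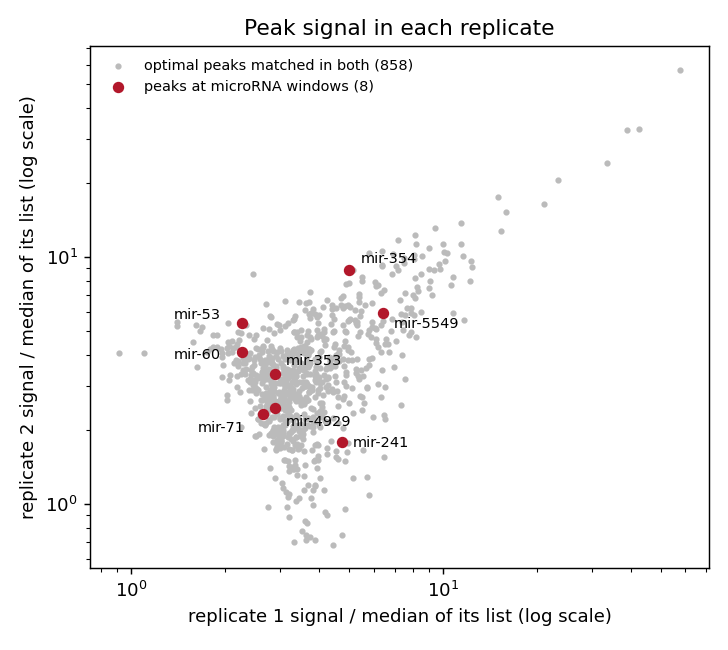
Each point is an optimal peak, with the signal of the matching peak in replicate 1 (horizontal) and replicate 2 (vertical), both divided by the median of that library's list and on log axes, and the 8 peaks at microRNA windows in red. mir-5549 (6.43 and 5.91) and mir-354 (5.01 and 8.86) are high in both libraries, mir-241 (4.73 and 1.79) is low in replicate 2, and mir-53 (2.27 and 5.40) is low in replicate 1.

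The optimal list was made from the replicate and pooled lists, so a match in both libraries was largely given in advance. Matching peaks were present in both replicate lists for all 8. Of all 870 optimal peaks, 869 were matched in replicate 1 and 859 in replicate 2. In both replicates q was 0.05 or less for 7 of the 8, against 741 of 870 (85.2%) for all optimal peaks. Among the strongest 870 peaks of both replicates were 3 of the 8 (37.5%), those of mir-5549, mir-354 and mir-353, against 411 of 870 (47.2%). The median rank of the 8 was 420 in the optimal list, against 435.5 for the whole list. In replicate 1 their median rank was 761.5, against 448 for all optimal peaks matched there, and in replicate 2 it was 416, against 591. With 8 peaks these medians are a description and were not tested. The lists give no read depth, which is unknown here.

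The relaxed lists, which hold weak peaks and background so that reproducibility can be judged, placed summits in many more windows. In the pooled list a summit lay in 60 windows (23.0%, interval 18.0% to 28.6%), beside 26.7% of protein-coding windows. In the replicate 1 list it lay in 100 (38.3%, interval 32.4% to 44.5%), beside a background of 37.7%. In the replicate 2 list it lay in 96 (36.8%, interval 30.9% to 42.9%), beside 40.4%. Both replicates had a summit in 61 windows (23.4%, interval 18.4% to 28.98%), beside 23.9% of protein-coding windows. In every one of these lists the protein-coding share lay within the microRNA interval. A further 74 windows had a summit in 1 replicate only, 39 in replicate 1 and 35 in replicate 2, and 126 had none in any list.

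**Figure D3:**
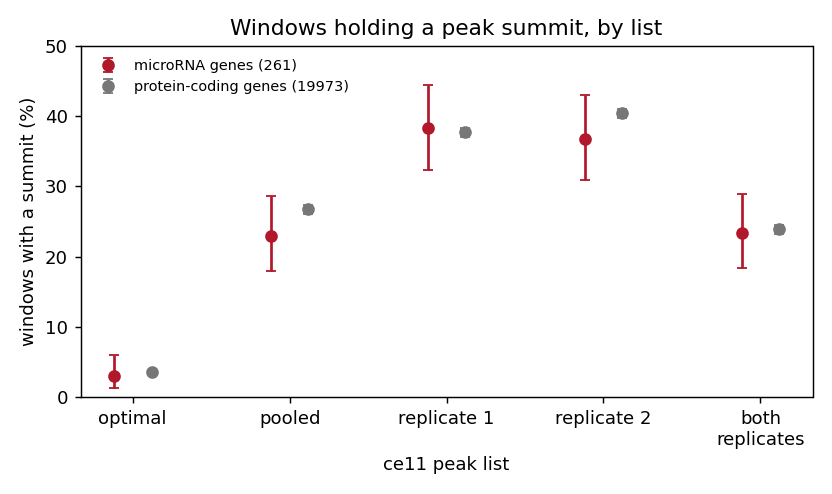
Share of windows in percent that held at least 1 summit, for microRNA genes in red and protein-coding genes in grey, in each ce11 list and in both replicate lists; points are shares and bars exact 95% binomial intervals that cover counting only. The grey points lie within the red intervals in every list, from 3.07% and 3.63% in the optimal list to 38.3% and 37.7% in replicate 1.

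The shares were also compared along the ranks of the pooled list. Among its strongest 100 nuclear peaks, whose order is that of the optimal list as far as that list goes, 2 microRNA windows had a summit (0.766%, against 0.401% of protein-coding windows), those of mir-5549 and mir-354. Among the strongest 500 it was 5 windows (1.92% against 2.19%), and among the strongest 2000 it was 12 (4.60% against 7.36%). Among the strongest 5000 it was 38 (14.6% against 14.3%). The microRNA share was below the protein-coding share at 2000 peaks, close to it at 5000 and below it again at all 13300 (23.0% against 26.7%). None of these differences was tested.

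**Figure D4:**
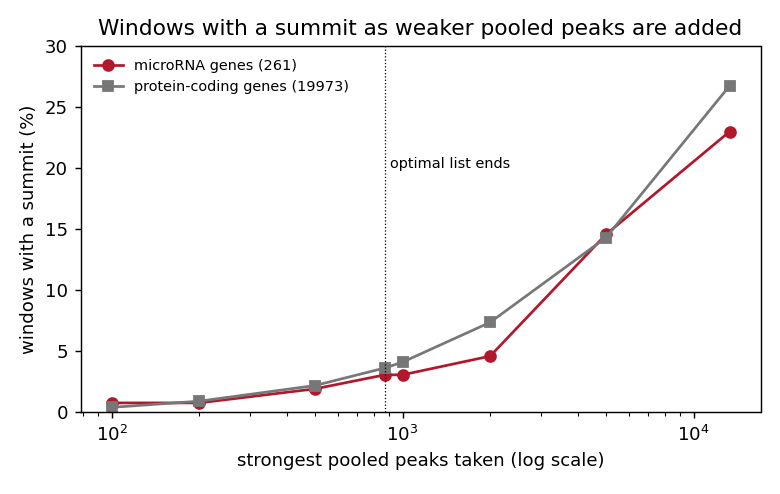
Share of microRNA (red) and protein-coding (grey) windows in percent that held a summit as more of the pooled list is taken, from its strongest 100 peaks to all 13300 (log axis); the dotted line marks the 870 peaks of the optimal list. The shares are 0.766% and 0.401% at 100 peaks, where 2 microRNA windows count, and 1.92% and 2.19% at 500. They part at 2000 (4.60% and 7.36%), are close at 5000 (14.6% and 14.3%) and part again at 13300 (23.0% and 26.7%).

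When the relaxed lists were restricted to peaks with q of 0.05 or less, 12 windows remained occupied in the pooled list (4.60%, against 7.13% of protein-coding windows), 16 in replicate 1 (6.13% against 8.34%) and 28 in replicate 2 (10.7% against 9.62%). Both replicates had such a peak in 10 windows (3.83% against 4.88%). They included the windows of mir-241, mir-354, mir-4929, mir-53, mir-5549, mir-60 and mir-71, all in the optimal list. The others were those of mir-239.1, mir-239.2 and mir-4815. At mir-241 the replicates passed at different summits, 801 bp upstream in replicate 1 and 376 bp upstream in replicate 2. The optimal member mir-353 is not among the 10, since its replicate 1 summit fell outside the window. mir-239.1 and mir-239.2 are divergent neighbours that share summits. Their strongest summits also lay apart in the replicates, 352 bp upstream of mir-239.1 in replicate 1 (rank 1180) and 854 bp upstream in replicate 2 (rank 588), and the replicate 1 peak matching their pooled summit had q 0.307. At mir-4815 (chrIV:5668921-5669019, inside T19E7.6 on its strand) the strongest summit of replicate 1 was 170 bp upstream (signal 30.1, rank 950) and that of replicate 2 was 635 bp upstream (signal 15.1, rank 859), again in different places of 1 window. This hairpin is the microRNA nearest to skn-1, 8537 bp from the gene, and the strain carries a tagged copy of that gene whose extent is not given in the sources used here; its part in the signal was not tested.

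Among the 52 genes with a pooled but no optimal summit the best-ranked was mir-58.2 (signal 34.6, rank 1547, summit 76 bp downstream of the hairpin's 5' end). It was followed by the pair mir-239.1 and mir-239.2, microRNAs known from ageing studies, which share a summit with a signal of 34.2 (rank 1584) 849 bp upstream of the first and 197 bp upstream of the other. Next were mir-4932 (rank 1798, in the promoters of klp-16 and smn-1), mir-2214 (rank 2018), the cluster of mir-54, mir-55 and mir-56 with a single shared summit (signal 31.0, rank 2107), mir-2207 (rank 2180, in the promoter of npp-5) and mir-48 (signal 30.3, rank 2252, 720 bp upstream). These 10 genes rest on 7 distinct summits. All 10 had a matching peak in both replicates, with q of 0.05 or less for 1 of them in replicate 1 and for 8 in replicate 2. The 52 genes drew on 48 distinct summits, and for 24 of the genes the best summit was also in a protein-coding promoter. Of all 13300 pooled summits, 4911 lay in a window at the 5' end of a protein-coding gene record, which leaves out other transcripts. These counts differ in unit, and no difference was tested. Between the weakest optimal member, mir-71 at 44.2, and mir-58.2 at 34.6 no further microRNA window had its best pooled summit.

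Several optimal peaks lay just beyond a window. The strongest was 1281 bp upstream of mir-2221 on chromosome X, with a signal of 102.8 and rank 79, 2249 bp from the nearest protein-coding 5' end. A peak at chrIII:8868278-8868617 (signal 47.7, rank 657) was 1023 bp upstream of mir-238, a microRNA that supports lifespan. Its nearest protein-coding 5' end was 8680 bp away, it ranked 823 and 660 in the replicates, and in replicate 2 its summit fell inside the window, 990 bp upstream. The peak nearest to let-7 was 1852 bp upstream of the annotated record (signal 52.4, rank 479; ranks 808 and 594 in the replicates) and in the promoter of C05G5.2. The let-7 record is a primary transcript of 1732 bp, so that the summit was 2918 bp from the mature let-7-5p. The mir-53 peak was also 1679 bp upstream of mir-51, so both genes lie downstream of 1 summit. The others were 1001 bp downstream of the mir-392 5' end (rank 533, bra-1 promoter) and 1441 bp upstream of mir-63 (rank 662, lec-9 promoter). With windows reaching 2000 bp upstream, 13 of 261 microRNA windows held an optimal summit, beside 4.79% of protein-coding windows. This difference was not tested.

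The shares of all 261 windows with a summit, 3.07% in the optimal list, 23.0% in the pooled list and 23.4% in both replicates, are the background for the groups by role, whose differences from them were not tested. Of the timing microRNAs lin-4, let-7, mir-48, mir-84, mir-241 and mir-237, 6 in all, 1 had an optimal summit, 3 a pooled summit and 4 a summit in both replicates. lin-4, the founding microRNA that lowers lin-14, had a pooled summit 744 bp upstream at rank 3581, matched in replicate 1 at rank 2551 and absent from the replicate 2 window. At let-7 the summits inside the window were weak, rank 16088 in replicate 1 and 25349 in replicate 2, and likewise at mir-84 (8554 and 20968). mir-237, a lin-4 relative, had no summit in any list. mir-48 and mir-241 lie close together on the same strand of chromosome V, and mir-48 had its own pooled summit, described above, with replicate ranks of 2123 and 3153.

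Of 10 microRNAs known from ageing, diet or stress, 2 had an optimal summit (mir-71 and mir-60), 5 a pooled one and 7 one in both replicates, with mir-239.1 and mir-239.2 counted as 2 though they share summits. mir-228 had a summit in replicate 2 (rank 1126, 154 bp downstream of the 5' end) and none in replicate 1 or the pooled list. mir-34, which acts in the DNA damage response, was marked by weak summits, rank 16087 in replicate 1 and 12384 in replicate 2, and mir-80, which acts in dietary restriction, by ranks 8895 and 19912. mir-229 had a summit in replicate 2 alone (rank 24073) and mir-246 none. Of the neuronal and muscle genes, mir-1 had a pooled summit at rank 4952, 211 bp upstream. lsy-6, which sets the left-right difference of taste neurons, had one at rank 11894, and mir-124 had one in replicate 1 only (rank 11428).

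None of the 8 genes of the embryonic mir-35 family had an optimal or pooled summit, and the replicate 1 summits at 7 of them came down to a single weak peak (rank 9188) shared by mir-35 to mir-40 and another at mir-42. In the mir-51 family all 6 genes had a pooled summit, from rank 422 at mir-53 through 2935 at mir-52 to 12940 at mir-51, with mir-54, mir-55 and mir-56 counted on 1 summit. Of the bantam-related mir-58 family, mir-58.1 had a pooled summit (rank 3367), mir-80 and mir-82 were in replicate lists only, and mir-81 was in none. The best-ranked gene of that name was mir-58.2, described above, which the list by role did not hold. The counts in families are small and neighbouring genes share summits, so they are not independent, and no difference between families was tested.

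Counts by setting are read against the shares of all microRNA windows above, and no difference between settings was tested. Of 74 microRNA genes inside a protein-coding gene on its own strand, 4 (5.41%) had an optimal and 19 (25.7%) a pooled summit. Of 32 on the other strand only, 0 had an optimal and 5 (15.6%) a pooled summit, and of 155 outside protein-coding genes the counts were 4 (2.58%) and 36 (23.2%). Where the window touched a protein-coding promoter, 33 of 97 windows (34.0%) had a pooled summit, against 27 of 164 (16.5%) where it touched none. No optimal summit lay in the 74 windows on chromosome X. Taking 3 divided by the number of windows as a rough limit, and not an exact interval, this allows a share of up to 4.05%. That does not separate it from the 3.003% of protein-coding windows there. Of the 6 genes with a peak just outside the window 4 are on that chromosome, beside 74 of all 261 microRNA windows. This difference was not tested. Genes with a symbol numbered mir-1000 or higher, mostly later additions to the catalogue, had a pooled summit in 21 of 122 windows (17.2%). The others had one in 39 of 139 (28.1%), beside 23.0% of all microRNA windows and 26.7% of protein-coding ones. These others have lower numbers or symbols without a mir number, among them B0462.6, which is mir-12134 by name and had no pooled summit.

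**Figure D5:**
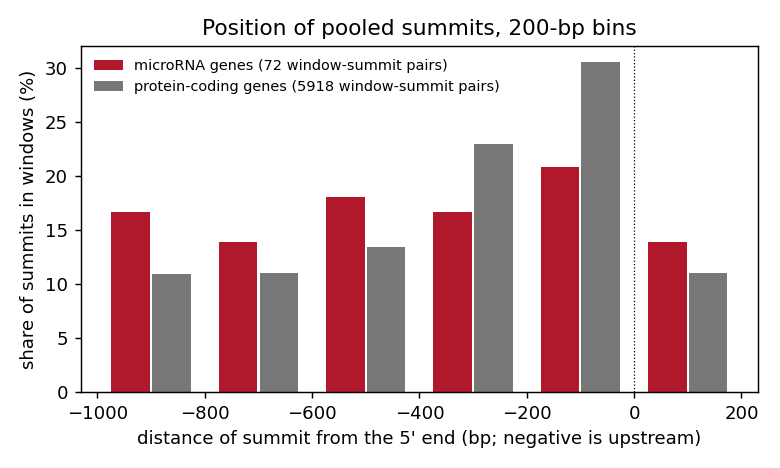
Position of pooled summits within the windows, as percent of all window and summit pairs in 200-bp bins of distance from the annotated 5' end, for microRNA genes (red) and protein-coding genes (grey). For protein-coding genes 30.5% of pairs lie in the last 200 bp upstream of the 5' end, and for microRNA genes 20.8%, with the rest spread across the window.

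Counted as window and summit pairs, pooled summits of microRNA genes were spread more evenly within the windows than those of protein-coding genes. From the bin furthest upstream to the one downstream of the 5' end the 200-bp bins held 12, 10, 13, 12, 15 and 10 pairs. So 20.8% lay in the last 200 bp upstream, against 30.5% for protein-coding genes, and the difference was not tested. The microRNA pairs drew on 67 distinct summits, since neighbouring genes share summits at different distances. In the optimal list the bins held 3, 0, 0, 2, 3 and 0. There the microRNA share in the last 200 bp upstream was 37.5%, resting on 3 summits. This was close to the 39.8% of protein-coding summits, so the difference seen in the pooled list did not appear in that bin. Per length, optimal summits were denser in the microRNA windows, which cover 276.8 kb, than in the genome as a whole, at 28.9 against 8.68 per Mb, and protein-coding windows had a similar density of 25.2 per Mb. Of other short RNA genes, snoRNA windows held an optimal summit in 30 of 346 (8.67%), snRNA windows in 7 of 129 (5.43%), tRNA windows in 22 of 612 (3.59%) and piRNA windows in 72 of 15363 (0.469%); these differences were not tested.

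Words were set beside all optimal peaks. All were searched on both strands. The SKN-1 word, TATCAT or TGTCAT preceded by 2 bases that are each A or T, lay within 100 bp of the summit at 1 of the 8 microRNA peaks, mir-4929, and at 27.6% of the 870. In the 201 bp upstream of all 261 hairpins it occurred in 9.96%, and upstream of protein-coding genes in 11.2%. The short word ATCAT or GTCAT, which is part of the longer one, lay at 5 of the 8 and at 69.9% of all optimal peaks, beside 48.3% of hairpin upstream stretches and 54.4% of protein-coding ones. TGATAA, whose reverse complement TTATCA overlaps a form of the SKN-1 word, lay at 1 of the 8 and at 39.2% of all, beside 19.5% of hairpin and 22.8% of protein-coding upstream stretches. GAGAGAGA lay at 2 of the 8 and at 7.01% of all, beside 6.13% and 2.75%. CACGTG lay at 1 of the 8 and at 6.67% of all, beside 2.30% and 4.23%. The peaks at mir-354, mir-353 and mir-71 held none of these words in this stretch. A match is a description of the sequence and does not show a binding site.

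Among protein-coding genes of the microRNA pathway the tagged protein was found at promoters of a few effectors. Of 23 genes for processing, loading, silencing and turnover found in the annotation, 3 had an optimal summit in a promoter, beside the 3.89% of all protein-coding genes given above. They were vig-1, a component of the silencing complex (signal 70.0, rank 222; ranks 603 and 72 in the replicates), nhl-2, a TRIM-NHL cofactor (signal 51.4, rank 512, shared with tag-340), and ccf-1, a deadenylase subunit (signal 47.9, rank 649, shared with trap-4). The next in the pooled list were ain-1, a GW182 protein (rank 975), lin-28, which blocks let-7 processing (rank 1045), and ain-2 (rank 1157). pash-1, the Drosha partner, was at rank 2052, and 15 of the 23 had a pooled summit in a promoter, beside 29.2% of all protein-coding genes. Neither count was tested against that share. The genes drsh-1, xrn-2, ebax-1 and dbr-1 had no summit in any list. Of 12 known microRNA targets, lin-28 among them again, 0 had an optimal and 7 a pooled summit in a promoter, the latter beside the same 29.2%, the strongest at lin-28, pmk-2 (rank 1506) and mef-2 (rank 1917); lin-14 was at rank 3477 and hbl-1 at rank 9576.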

How the data were processed

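Peak lists in build ce11 of the replicate 1, replicate 2, pooled and optimal sets were used as deposited by the authors; the ce10 lists were not used. Per the file headers, the optimal list derives from the relaxed replicate and pooled lists. Each peak carries the authors' signal value, an enrichment on the scale of its own list, and a deposited −log10 q value, converted here to q. What aligner, peak caller and cutoffs made them is not given in the sources used here, and read depth is unknown.

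Summits (peak start plus summit offset) were counted in windows of 1201 bp with Python 3.11.15, numpy 2.4.6, scipy 1.17.1 and pandas 2.3.3; the counter was tested on simulated data. Of 872 optimal peaks, 870 are nuclear. A replicate peak matched an optimal peak when it overlapped it by 1 bp or more. Intervals are exact (Clopper-Pearson). With 1 group and 2 replicates no test between conditions was possible. Sequences came from the RefSeq genome and annotation of WBcel235, in which 261 of 261 genes were matched. Named were all occupied genes, the 10 best pooled ones, those just outside (up to 1000 bp) and lists by role. The members and lists were chosen with earlier results of these data known. Windows, overlap rules, list strength and word distance were varied.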

Additional observations from a re-analysis of the deposited data

How the results depend on the processing

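The number of occupied microRNA windows in the optimal list was set by a few peaks. From 8, it became 5 with windows from 500 bp upstream to 100 bp downstream, 13 with windows reaching 2000 bp upstream (adding let-7, mir-2221, mir-238, mir-51 and mir-63) and 5 with the peaks of above-median signal. Overlap by 1 bp or more gave 9, adding mir-238. Using 1 library alone gave 4 to 12: replicate 1's own strongest peaks gave 4 (mir-241, mir-354, mir-4929 and mir-5549), and replicate 2's gave 12, of which 5 were among the 8. The protein-coding share moved from 3.63% to 2.94% with the shorter window, 4.79% with the longer one and 3.93% with overlap. It fell to 1.95% among the peaks of above-median signal, and with 1 library alone it was 3.44% to 3.51%. In the pooled list 60 windows became 12 at q of 0.05 or less, 38 with the strongest 5000 peaks and 37 with the shorter window. The same changes gave 16, 36 and 61 from 100 in replicate 1 and 28, 35 and 57 from 96 in replicate 2. Windows occupied in both replicates went from 61 to 10 at q of 0.05 or less and 21 with the strongest 5000. The SKN-1 word was at 0 of the peaks within 50 bp of the summit and at 2 within 150 bp. The promoter overlap (3 to 4 of 8), the loci (8) and the pathway genes (2 to 4) stayed within 1.5 times. The cause of these shifts was not tested beyond the fewer peaks or shorter windows each setting takes. Of 32 alternative values 18 moved by more than 1.5 times. No paired analysis was possible because there is 1 group. Unknown read depth limits any statement on windows without a summit.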
